A study of Rattus norvegicus with 2 samples.

Results

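The SLC25 family holds the mitochondrial carriers, and its members were taken here as every gene symbol of the deposited transcript table that begins with Slc25a and a number. This gave 39 genes with 48 transcripts, of 15409 symbols and 20367 transcripts in all. The transcripts of a gene were summed. RBL-2H3, the line sequenced, is a rat basophilic leukaemia line that serves as a mast cell model. One strand-specific library, called treated below, is of cells exposed to PM2.5, the fine fraction of airborne particulate matter, plus IgE and its antigen DNP-HSA, which together crosslink the IgE receptor. The other, called saline below, is of cells that received normal saline, and whether IgE and antigen were added to them too is left unsaid in the labels. No dose unit and no time are given. With 1 library per group, the differences below cannot be checked against replicates, and the conditions were not tested against each other.

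SLC25 carriers are small proteins of the inner mitochondrial membrane, encoded in the nucleus and inserted by the TIM22 translocase. Each exchanges or imports a given set of solutes, among them ADP and ATP, phosphate, di- and tricarboxylates, amino acids, iron, glutathione and cofactors. Through them the matrix is linked to the cytosol for respiration, the malate-aspartate shuttle, lipid synthesis and heme synthesis. A few members work elsewhere, such as Slc25a17 in the peroxisome and Slc25a46 at the outer mitochondrial membrane.

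The treated library held 3964955 reads assigned to the listed transcripts, and the saline library 7279671. All 8 mast cell markers examined were measured, with at least 152 normalised counts. Of these, 5 had intervals above 0, from Fcer1a at a log2 fold of treated over saline of 0.44 to Cpa3 at 1.74, and Kit, Gata2 and Hdc had intervals below 0, at -0.21, -0.45 and -1.07. Of 8 markers of other cell types Col1a1 and Hba-a1 were measured, with at most 36.4 normalised counts. Levels are given as normalised counts, that is, reads divided by the size factor of the library. They are not corrected for transcript length, so they compare a gene between the libraries and not genes with each other. Each log2 fold sets the treated over the saline library after 1 was added to both normalised counts, and each interval is the exact 95% range of the read ratio by the Clopper-Pearson method. Reads are not independent molecules, so the intervals cover counting error only and not the spread between cultures. A gene was called higher or lower by size when its log2 fold reached 1 or -1 and either library had a normalised count of 1 or more.

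Few carriers passed the size rule. By it 1 of 39 members was higher in the treated library, where 12.1% of the 15097 symbols past the filter were, and 4 of 39 were lower, where 19.1% were. All 39 passed the filter. They also all reached a normalised count of 5 in at least 1 library, and of the 13051 symbols that did so 9.96% were higher and 14.5% lower. The higher one was Slc25a46, and the lower ones were Slc25a33, Slc25a43, Slc25a18 and Slc25a47. Counting intervals lay wholly above 0 for 7 members, against 22.8% of all symbols, and wholly below 0 for 11, against 26.8%. For the remaining 21 members the interval held 0. The median log2 fold of the family was -0.23, beside -0.07 over all symbols past the filter, with the members at 0 reads set to their floor of 3 reads or not.

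By sign alone, 15 members had a log2 fold above 0, beside 45.7% of all symbols, and 24 below 0, beside 54.3%. The members below 0 were more frequent at low level. Of the 28 members that reached a normalised count of 50 in 1 of the libraries, 14 had a log2 fold below 0, where 52.1% of the 9469 symbols of that level did, and their median was -0.0071 beside -0.04. By size 1 of these 28 was higher, beside 7.47%, and 1 lower, beside 8.59%. Of the 11 members under 50, 10 had a log2 fold below 0, where 58.7% of 3582 symbols with a normalised count of 5 to under 50 did, and their median was -0.59 beside -0.24. By size 0 of these 11 were higher, beside 16.6%, and 3 lower, beside 30.2%. Only Slc25a18 and Slc25a47 among these 11, both at 0 reads in the treated library, had a counting interval clear of 0. The saline library was 1.84 times as deep in assigned reads, and the part of depth in this was not tested.

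Summed over the family, the normalised count was 15948 in treated and 14795 in saline cells. This is a log2 fold of 0.11 with an interval of 0.07 to 0.14, beside 0.056 for the sum of all symbols. With library totals made equal the log2 fold of the family sum was 0.056. That scaling moves log2 folds by about -0.05, and the value for the sum of all symbols moves with it. Slc25a5 alone had 3300.0 in treated and 1886 in saline cells, a larger difference than that of the family sum. The family took 0.244% of the assigned reads of the treated library (exact interval 0.239% to 0.248%) and 0.234% of those of the saline library (0.231% to 0.238%). The phosphate carrier Slc25a3, the ADP/ATP carrier Slc25a5 and the glutathione carrier Slc25a39 made up 57.6% of the family's reads in treated and 54.0% in saline cells. From these bulk values, fewer cells with a transcript and less of it per cell cannot be told apart.

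**Figure D1:**
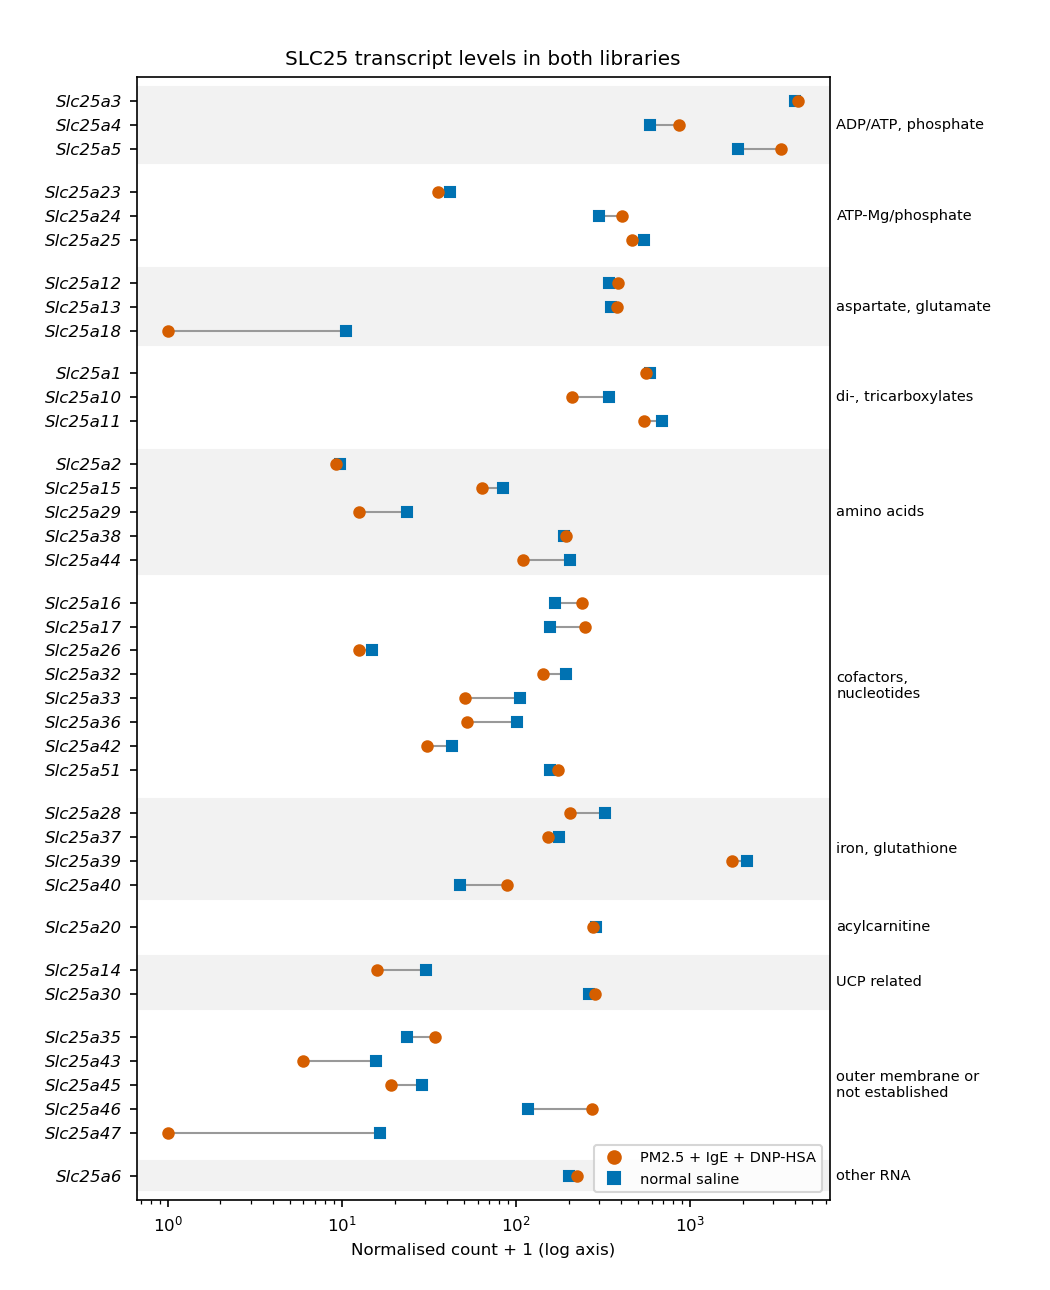
Normalised count plus 1 of 38 of the 39 SLC25 members on a log axis, grouped by the solute they carry, with circles for the PM2.5, IgE and DNP-HSA library and squares for the saline library. Slc25a3, Slc25a5 and Slc25a39 hold the highest values in both libraries, and Slc25a18 and Slc25a47 are at 0 reads in the treated library.

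The ADP/ATP carriers were the abundant members with the highest folds. Slc25a5 (ENSRNOG00000039980), an ADP/ATP translocase that exports matrix ATP, had 3300.0 normalised counts in treated and 1886 in saline cells, from 1998 and 2175 reads. Its log2 fold was 0.81 with an interval of 0.72 to 0.90. Slc25a4 (ENSRNOG00000010830), its paralogue best known from heart and muscle, had 857 normalised counts in treated and 583 in saline cells, a log2 fold of 0.56 (interval 0.39 to 0.72, 519 and 672 reads). Slc25a5 made up 79.4% of the reads of the pair in the treated library (exact interval 77.7% to 80.9%) and 76.4% in the saline library (74.8% to 77.9%). Slc25a3 (ENSRNOG00000008289), which brings in the phosphate for ATP synthesis, differed little, with 4152 normalised counts in treated and 3991 in saline cells. Its log2 fold was 0.06 and the interval of -0.01 to 0.13 held 0. The symbol Slc25a6, in human a further ADP/ATP carrier, is listed in the deposited table as an RNA outside the protein coding class and as protein coding by RefSeq for GRCr8. It had 221 against 200.4 normalised counts, with an interval that held 0. RefSeq's table for GRCr8 lists 9 pseudogenes of Slc25a5, 1 of Slc25a4 and 8 of Slc25a39, and reads could be split between such near-identical copies.

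The 250 bases before the start of Slc25a5, Slc25a4 and Slc25a33 are shown, as the promoters of the pair of ADP/ATP carriers with values above 0 and of the best covered member called lower by size. They were taken from RefSeq for GRCr8, at chrX:120897366-120897615 on the plus strand for Slc25a5, at chr16:52805271-52805520 on the plus strand for Slc25a4 and at chr5:165502974-165503223 on the minus strand for Slc25a33. Capitals mark matches on either strand to CCAAT, to the ETS motif CCGGAAG, to the cyclic AMP response element TGACGTCA and to the E-box CACGTG, and no 2 matches share a letter.
Slc25a5: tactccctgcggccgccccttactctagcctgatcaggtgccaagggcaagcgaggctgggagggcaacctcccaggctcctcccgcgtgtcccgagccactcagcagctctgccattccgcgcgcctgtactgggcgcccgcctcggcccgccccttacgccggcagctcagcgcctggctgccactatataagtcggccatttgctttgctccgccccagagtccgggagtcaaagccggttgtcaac
Slc25a4: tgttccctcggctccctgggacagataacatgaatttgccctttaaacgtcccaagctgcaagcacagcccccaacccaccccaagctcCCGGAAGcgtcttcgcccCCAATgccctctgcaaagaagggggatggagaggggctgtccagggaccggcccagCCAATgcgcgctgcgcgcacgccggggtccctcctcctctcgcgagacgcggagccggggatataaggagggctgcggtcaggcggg
Slc25a33: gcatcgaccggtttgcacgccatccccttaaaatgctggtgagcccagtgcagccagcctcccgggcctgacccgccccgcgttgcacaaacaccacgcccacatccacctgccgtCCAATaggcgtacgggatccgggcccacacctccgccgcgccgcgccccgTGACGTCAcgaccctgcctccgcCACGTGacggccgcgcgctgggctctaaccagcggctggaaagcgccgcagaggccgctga
The Slc25a5 window held none of these motifs, whereas the Slc25a4 window held CCAAT and the ETS motif and the Slc25a33 window CCAAT, the cyclic AMP response element and the E-box. A window of 300 bases, 50 of them after the start, was found for 32 of the 39 members, and 33469 such windows of all RefSeq gene types are in the table. CCAAT stood in 17 of the 32 member windows, beside 37.5% of all windows, and CCGGAAG in 6, beside 8.75%. TGACGTCA stood in 2, those of Slc25a25 and Slc25a33, beside 1.83%, and CACGTG in 3, beside 6.42%. TATAAA stood in 1, that of Slc25a38, beside 14.2%, and the ATF4 element TGATGNAA in 0, beside 3.98%. These are matches of letters and not measured sites.

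**Figure D2:**
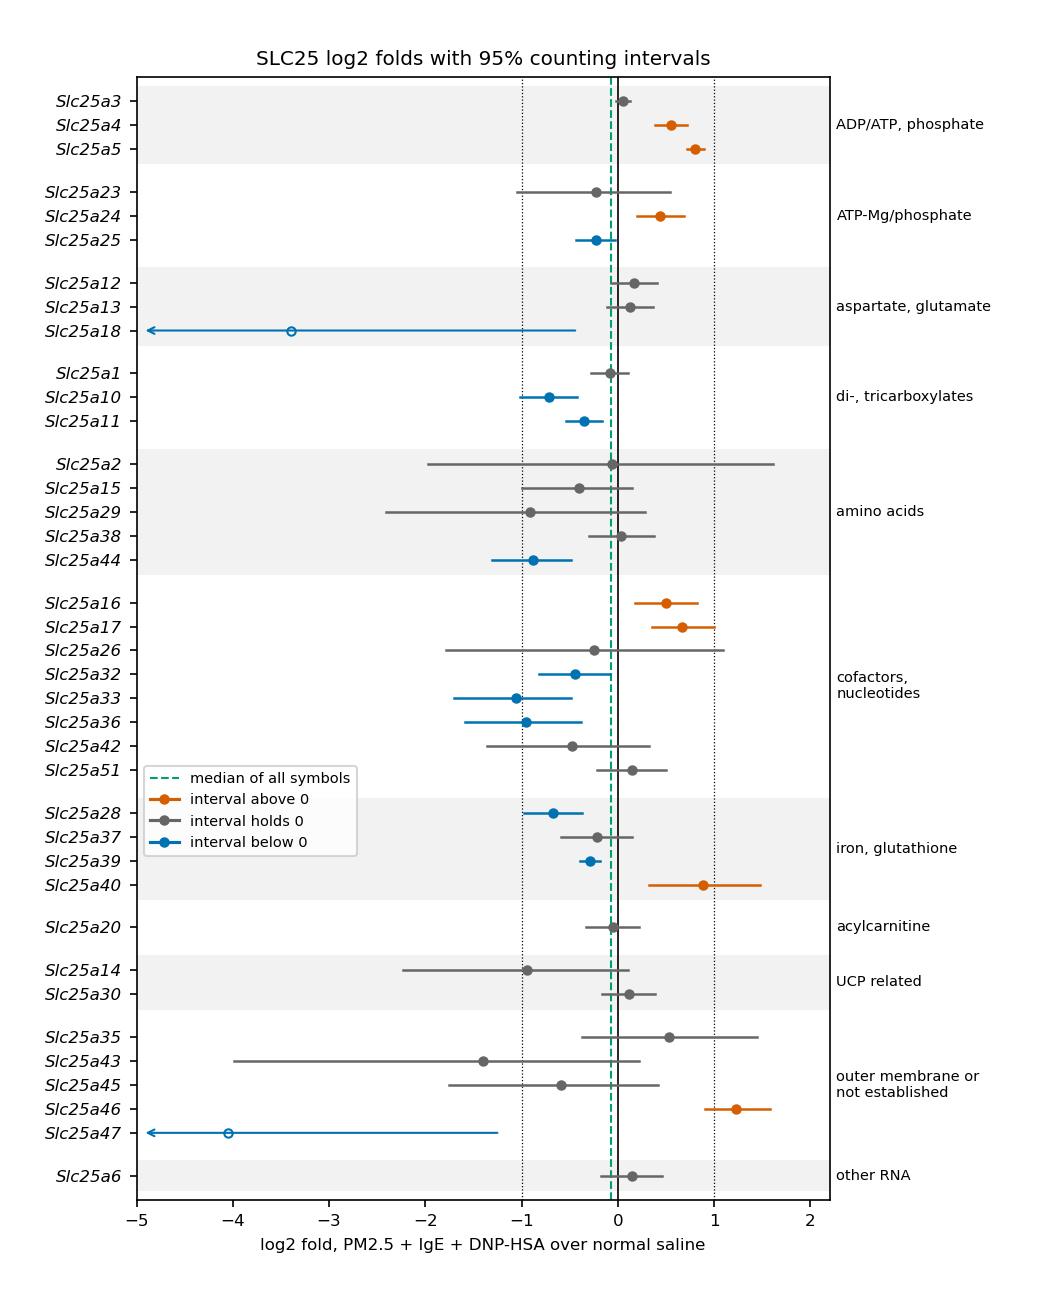
Log2 fold of the PM2.5, IgE and DNP-HSA library over the saline library for 38 of the 39 SLC25 members, with its exact 95% counting interval as a line, dotted lines at -1 and 1 and a dashed line at the median of all symbols. The interval of Slc25a46 is the highest that is clear of 0, and open circles with arrows are the 2 members with 0 reads in the treated library, whose fold is set by the added 1.

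The calcium-regulated carriers of ATP-Mg and phosphate, which set the adenine nucleotide pool of the matrix, went different ways. Slc25a24 (ENSRNOG00000020470) had 403 normalised counts in treated and 297 in saline cells, a log2 fold of 0.44 with an interval of 0.20 to 0.68. Its paralogue Slc25a25 (ENSRNOG00000014338) had 462 in treated and 542 in saline cells, a log2 fold of -0.23 with an interval of -0.44 to -0.02. The 2 intervals did not overlap, and Slc25a25 held 53.4% of the reads of the pair in the treated library (49.1% to 57.8%) and 64.6% in the saline library (61.5% to 67.6%). Slc25a23, with 21 and 47 reads, had an interval of -1.05 to 0.54.

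The aspartate/glutamate carriers of the malate-aspartate shuttle were nearly level. Slc25a12 had 383 normalised counts in treated and 342 in saline cells, and Slc25a13 had 379.9 in treated and 348 in saline cells. Both intervals held 0, at -0.08 to 0.40 and -0.11 to 0.36, and Slc25a13 held 49.8% of the reads of the pair in treated and 50.4% in saline cells. The glutamate carrier Slc25a18 had 0 reads in treated and 11 in saline cells. It passed the size rule with a log2 fold of -3.40, whose size was set by the added 1, and was at -1.54 with an added count of 5. Against the floor of 3 reads, a normalised count of 4.95, it was 1.93-fold lower, short of the 2-fold of the size rule. The upper end of its interval was a log2 fold of -0.40.

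The carriers of di- and tricarboxylates all had values below 0, as did 54.3% of all symbols, and 2 of these 3 had intervals below 0, beside 26.8%. Slc25a10 (ENSRNOG00000036693), the dicarboxylate carrier that exchanges malate and succinate for phosphate, had 208 normalised counts in treated and 341 in saline cells. This is a log2 fold of -0.71 with an interval of -1.01 to -0.42. Slc25a11 (ENSRNOG00000003815), the oxoglutarate/malate carrier of the malate-aspartate shuttle, had 542 in treated and 689.5 in saline cells, a log2 fold of -0.35 (interval -0.54 to -0.16). The citrate carrier Slc25a1 (ENSRNOG00000038001), which supplies the cytosol with citrate for lipid synthesis, had 553 in treated and 585 in saline cells, and its interval of -0.27 to 0.11 held 0. Slc25a20, the only acylcarnitine carrier of the family and the step between the carnitine palmitoyltransferases of fatty acid oxidation, had 274 in treated and 284 in saline cells, with an interval of -0.33 to 0.22.

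Among carriers of basic and branched-chain amino acids and glycine, 4 of 5 members had a value below 0, beside 54.3% of all symbols, and 1 had an interval below 0, beside 26.8%. That one was Slc25a44 (ENSRNOG00000025269), a carrier of branched-chain amino acids, with 109 normalised counts in treated and 202 in saline cells. Its log2 fold was -0.88 with an interval of -1.31 to -0.49. Slc25a38, which brings in glycine for heme synthesis, had 192 in treated and 186 in saline cells, and its log2 fold of 0.04 turned to -0.01 with library totals made equal. The ornithine carriers Slc25a15 (38 and 96 reads) and Slc25a2 (5 and 10 reads) and the basic amino acid carrier Slc25a29 (7 and 26 reads) had intervals that held 0.

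The carriers of cofactors and nucleotides fell into members above and below 0. The pyrimidine nucleotide carriers Slc25a33 and Slc25a36, which feed mitochondrial DNA and RNA synthesis, both had intervals below 0. Slc25a33 (ENSRNOG00000016949) had 49.5 normalised counts in treated and 104 in saline cells, a log2 fold of -1.06 with an interval of -1.70 to -0.48. Slc25a36 (ENSRNOG00000013802) had 51.2 in treated and 99.7 in saline cells, a log2 fold of -0.95 with an interval of -1.58 to -0.38. The folds of the pair did not separate, since their intervals overlapped, and the size rule split them only by its threshold: Slc25a33 was at -0.9997 with an added count of 5, and Slc25a36 at -1.0002 with library totals made equal. The FAD and folate carrier Slc25a32 was at -0.44 (interval -0.82 to -0.08), with 142 normalised counts in treated and 193 in saline cells.

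Above 0 in this group stood Slc25a17 and Slc25a16. Slc25a17 (ENSRNOG00000018920), a peroxisomal carrier of coenzyme A and related nucleotides, had 248 normalised counts in treated and 155 in saline cells, a log2 fold of 0.67 with an interval of 0.35 to 0.995. Slc25a16 (ENSRNOG00000000387), linked to coenzyme A import, had 236 in treated and 167 in saline cells, a log2 fold of 0.50 (interval 0.18 to 0.82). Slc25a42, the carrier that imports coenzyme A, had 18 and 48 reads and an interval of -1.35 to 0.32 that overlapped that of Slc25a16. The NAD carrier Slc25a51 and the S-adenosylmethionine carrier Slc25a26 had log2 folds of 0.14 and -0.24, each with an interval that held 0.

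The glutathione carriers parted. Slc25a39 (ENSRNOG00000020994), which imports glutathione into the matrix, had 1731 normalised counts in treated and 2109 in saline cells, a log2 fold of -0.29 with an interval of -0.39 to -0.18. Its paralogue Slc25a40 (ENSRNOG00000022837) had 87.5 in treated and 46.8 in saline cells, a log2 fold of 0.89 with an interval of 0.33 to 1.48. The intervals were apart, and Slc25a40 held 4.81% of the reads of the pair in the treated library (3.63% to 6.25%) and 2.17% in the saline library (1.64% to 2.82%). Of the mitoferrins, which bring iron into the matrix, Slc25a28 (ENSRNOG00000016751) had 201.5 in treated and 321 in saline cells, a log2 fold of -0.67 with an interval of -0.98 to -0.37. Slc25a37, the mitoferrin best known from red cell precursors, had 150.3 in treated and 174 in saline cells, with an interval of -0.59 to 0.15 that overlapped that of Slc25a28.

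Of the carriers related to the uncoupling proteins, Slc25a30 had 281 normalised counts in treated and 259 in saline cells, and Slc25a14 had 9 and 34 reads, with intervals that held 0. In the group of outer membrane members and carriers without a settled substrate, 1 of 5 was higher by size, beside 12.1% of all symbols. By size 2 were lower, beside 19.1%, or 30.2% of symbols at 5 to under 50 normalised counts, the level of both. Slc25a46 (ENSRNOG00000017091), an outer membrane protein of mitochondrial fission and lipid handling, had 273 in treated and 115 in saline cells. Its log2 fold of 1.23 had an interval of 0.90 to 1.58, from 165 and 133 reads. Slc25a47 (ENSRNOG00000003020), known as a liver carrier, had 0 reads in treated and 18 in saline cells. Against the floor of 3 reads in the treated library it was 3.15-fold lower. The upper end of its interval was a log2 fold of -1.21. Slc25a43 had 3 and 17 reads, and its log2 fold of -1.40 had an interval of -3.99 to 0.22 that held 0. Slc25a35 and Slc25a45 had 20 and 11 reads in the treated and 26 and 32 in the saline library, and their intervals held 0.

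Across the 7 paralogue pairs examined, 4 had both folds on the same side of 0. In 2 of the 7, Slc25a24 with Slc25a25 and Slc25a39 with Slc25a40, the folds were on opposite sides of 0 and the intervals did not overlap. Of all symbols 45.7% were above 0 and 54.3% below, and nothing particular to paralogues is read from these counts. Whether neighbouring members on a chromosome share a direction could not be told, since each pair had a member whose interval held 0. Slc25a5 and Slc25a43, with no coding gene between them on chromosome X of GRCr8, had log2 folds of 0.81 and -1.40. That of Slc25a43 came from 3 and 17 reads, with an interval of -3.99 to 0.22. Slc25a29 and Slc25a47, side by side on chromosome 6, both had log2 folds below 0. For Slc25a29 the reads were 7 and 26 and the interval of -2.41 to 0.28 held 0, and Slc25a47 had 0 and 18 reads.

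**Figure D3:**
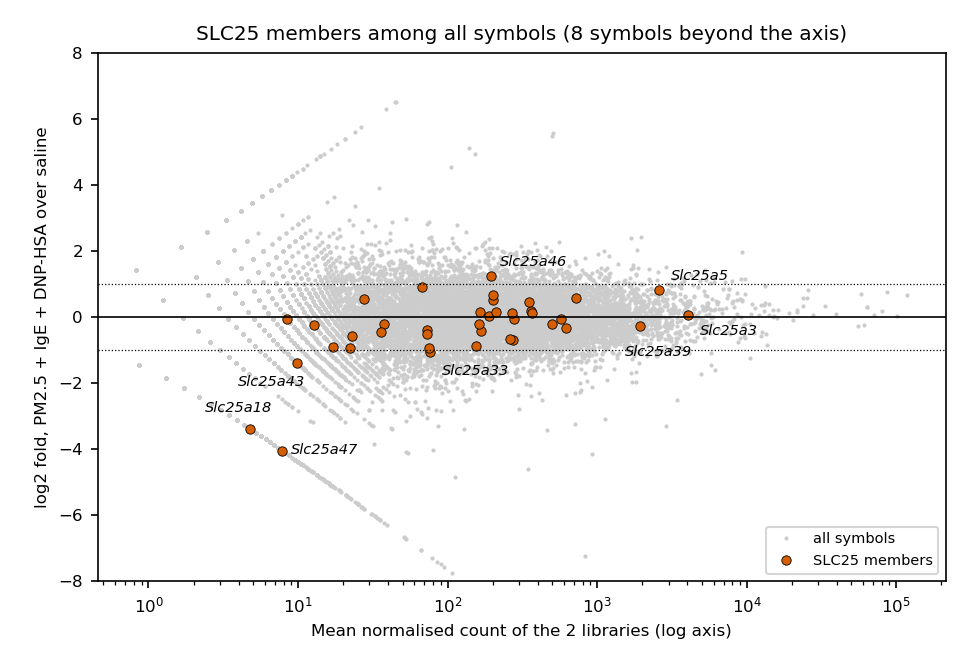
Log2 fold of the PM2.5, IgE and DNP-HSA library over the saline library against the mean normalised count of both libraries on a log axis, with SLC25 members as filled circles over all symbols as grey dots. Most members lie between the dotted lines at -1 and 1, and Slc25a18 and Slc25a47 lie on the line of symbols with 0 reads in the treated library.

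In Slc25a44 and Slc25a23 no transcript had reads in both libraries, and in Slc25a40 and Slc25a16 the leading transcript differed. Of the 39 members, 31 had 1 transcript in the table and 8 had several, all of them with at least 20 reads in each library. The leading transcript differed between the libraries in 4 of these 8 genes, where it did in 20% of 2355 genes with several transcripts and the same minimum of reads. In 2 of the 8 the leading transcript of each library had 0 reads in the other, where 2.17% of those genes did. The labels do not state how reads shared by overlapping transcripts were assigned, and the part of this in these values was not tested.

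In Slc25a44 all 66 reads of the treated library lay on transcript ENSRNOT00000092612, which had 0 reads in the saline library. In the saline library 186 reads lay on ENSRNOT00000068360 and 47 on ENSRNOT00000092257, and both had 0 reads in the treated library. Against a floor of 3 reads ENSRNOT00000092612 was 41.9-fold higher, and ENSRNOT00000068360 32.6-fold lower. The ends of their counting intervals nearest 0 were log2 folds of 5.05 and -4.71. The level of the gene summed over its transcripts differed far less, at a log2 fold of -0.88. In Slc25a23 all 21 reads of the treated library lay on ENSRNOT00000086575 and all 47 of the saline library on ENSRNOT00000073000. The summed log2 fold of -0.23 thus joined transcripts 13.3-fold higher and 8.23-fold lower against that floor. Here the interval ends nearest 0 were log2 folds of 3.31 and -2.69.

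In Slc25a40 the transcript ENSRNOT00000030352 had 53 reads in treated and 23 in saline cells, a log2 fold of 2.08 with an interval of 1.40 to 2.91. The other one, ENSRNOT00000061342, had 0 in treated and 31 in saline cells. Against the floor of 3 reads it was 5.43-fold lower, and the upper end of its interval was a log2 fold of -2.06. In Slc25a16 the shift was small, since ENSRNOT00000000438 held 52.4% of the gene's reads in the treated library (43.9% to 60.9%) and 42.7% in the saline library (35.6% to 50.03%). The abundant carriers kept 1 dominant transcript. That of Slc25a3, ENSRNOT00000011494, held 97.3% of the reads in treated and 99.3% in saline cells, and that of Slc25a5, ENSRNOT00000015085, held 98.6% in treated and 96.2% in saline cells. The minor Slc25a3 transcript ENSRNOT00000080824 had 67 reads in treated and 30 in saline cells, a log2 fold of 2.05 with an interval of 1.45 to 2.76. Those of Slc25a38 and Slc25a51 had at most 5 reads.

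**Figure D4:**
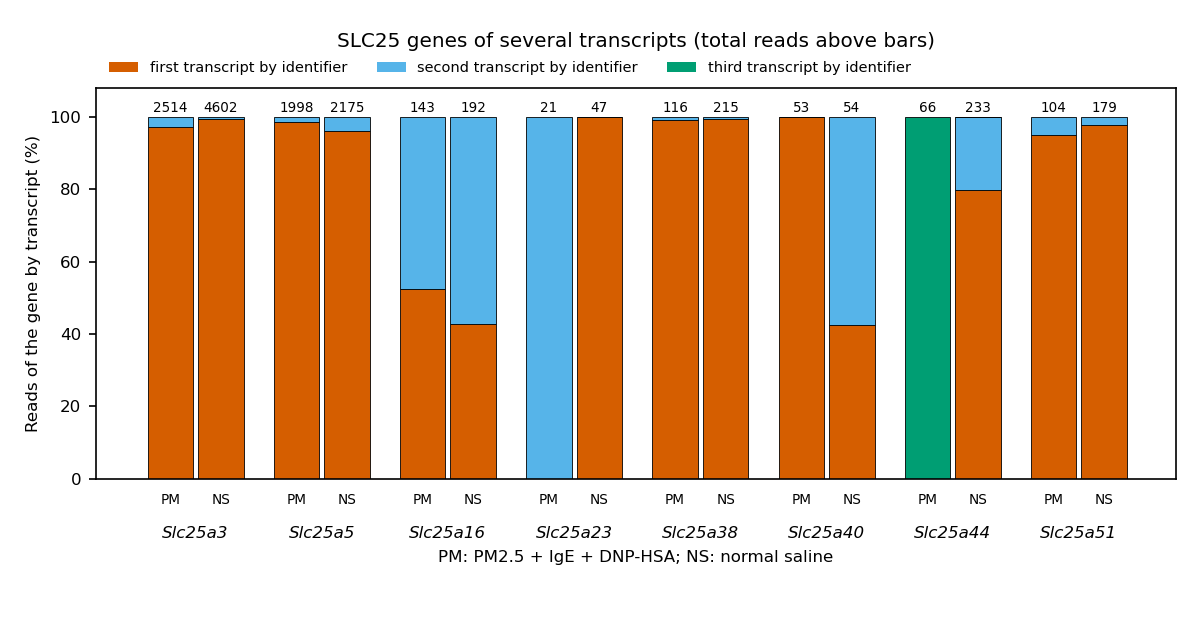
Share of each gene's reads by transcript in percent, for the 8 SLC25 genes with several transcripts, with the PM2.5, IgE and DNP-HSA library (PM) left of the saline library (NS) and the reads of the gene above each bar. The bars of Slc25a44 and Slc25a23 share no transcript between the libraries, and those of Slc25a3, Slc25a5, Slc25a38 and Slc25a51 are nearly alike.

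None of the 48 SLC25 transcripts was among the 57 that the authors' deposited table of selected transcripts holds. In the authors' deposited table of all transcripts, the lowest p-value of the family was 0.128, for the minor Slc25a3 transcript ENSRNOT00000080824. The authors' deposited table gives it an adjusted p-value of 0.92, which is also the lowest listed for any transcript, and a log2 fold of -2.05 that runs as saline over treated.

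Related mitochondrial genes were set beside the carriers in 6 lists, with 55 of 59 genes measured. Of these, 2 of 55 were higher by the size rule, beside 12.1% of all symbols, and 3 lower, beside 19.1%, and the median log2 fold was 0.03, beside -0.07. The lists that follow hold 4 to 16 measured genes each, and nothing particular to a list is read from its counts. Of the family genes under other symbols, the uncoupling protein Ucp2 was abundant, with 4710.5 normalised counts in treated and 6409.5 in saline cells. Its log2 fold was -0.44 with an interval of -0.51 to -0.38. Mtch1, an outer membrane relative, was at -0.29 (interval -0.47 to -0.11), and Ucp1 had 0 and 3 reads. In the TIM22 import path, which inserts these carriers, 0 of 9 genes passed the size rule. Its receptor Tomm70 was at 0.47 (interval 0.24 to 0.70), with 456 normalised counts in treated and 329 in saline cells, while the intervals of Timm9 and Timm13 held 0.

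Among other mitochondrial transporters 1 of 16 was higher by size and 0 lower. The subunits of the pyruvate carrier, Mpc1 and Mpc2, were at 1.09 (interval 0.77 to 1.44) and 0.92 (interval 0.37 to 1.49), with 266 and 92.5 normalised counts in the treated and 124 and 48.6 in the saline library. The outer membrane channels Vdac1 and Vdac2 were at 0.47 (interval 0.38 to 0.57) and 0.14 (interval 0.03 to 0.26). In the malate-aspartate shuttle and citrate list, whose enzymes work with Slc25a11, Slc25a12, Slc25a13 and Slc25a1, 0 of 9 passed the size rule. The cytosolic malate dehydrogenase Mdh1 was at 0.56 with an interval above 0, and the mitochondrial Mdh2 and citrate lyase Acly were at -0.13 and 0.09.

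In the carnitine shuttle list, around Slc25a20, 0 of 7 were higher by size and 2 lower. These were Cpt1b with 0 and 12 reads, and Cpt1c with 1 and 8 reads, whose interval held 0. Against the floor of reads set above, Cpt1b was 2.1-fold lower. The upper end of the Cpt1b interval was a log2 fold of -0.545. The dehydrogenases Acadm and Acadvl were at 0.83 (interval 0.56 to 1.10) and -0.39 (interval -0.64 to -0.14). In the iron-sulfur and heme list, which uses the iron of the mitoferrins and the glycine of Slc25a38, 1 of 10 was higher by size and 0 were lower. Alas1, the first enzyme of heme synthesis, had 127 normalised counts in treated and 242 in saline cells, a log2 fold of -0.92 with an interval of -1.31 to -0.56. Cpox, an enzyme later in the path, was at -0.02.

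**Figure D5:**
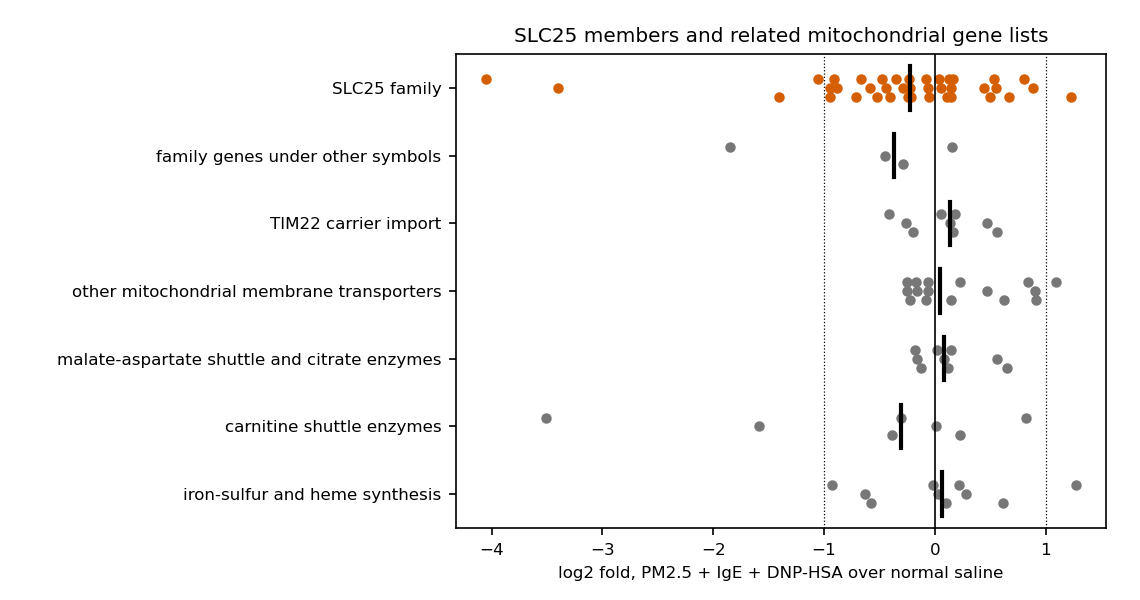
Log2 fold of the PM2.5, IgE and DNP-HSA library over the saline library for the SLC25 members and 6 lists of related mitochondrial genes, 1 dot per gene and a bar at each median. The SLC25 median of -0.23 lies below 0, as do those of the family genes under other symbols and of the carnitine shuttle, and Slc25a18, Slc25a47 and Cpt1b, with 0 reads in the treated library, lie farthest left.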

How the data were processed

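Total RNA of RBL-2H3 cells went into stranded Illumina libraries, per the labels' protocols, 1 for each of 2 groups. Tools named in the submitters' processing notes are FastQC, STAR 2.5, Cuffnorm and DESeq 1.22.1, with no statement of what each did. Build, annotation and counting options: not given in the sources used here. Per transcript, the authors deposited a log2 value for each library. After the log2 scale was undone and 1 taken off, 100% of them were whole multiples of 1 step in each library, within 1e-06 reads, so that reads and the size factors of 0.605 for the treated and 1.15 for the saline library followed. The authors' deposited p-values and log2 folds per transcript were used only as listed. A further 4 columns hold copies of these values and stayed out.

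For each symbol its transcripts were added up, and 1276 transcripts without a symbol were left out. The members, the role and partner lists, the paralogue pairs and the motifs were chosen with earlier results of these data known. Named were all members, in full those past the size rule, the 6 highest means and any in the authors' selected table, and from each partner list the 2 with the largest difference and the 2 of highest mean among genes with a normalised count of at least 5. Other genes with values, further transcripts and the minimum of 20 reads for transcripts were chosen after the values were seen. Role list members Slc25a21, Slc25a22, Slc25a27, Slc25a31, Slc25a34, Slc25a41, Slc25a48, Slc25a52 and Slc25a53 were not analysed here, and Slc25a6 stood in no role list. With 1 library per group no count model was run. The values of 1 member and of 2 genes of the partner lists are not reported here and enter only counts, sums, medians and unnamed points. The procedure was tested on simulated counts that had counting error only, which leaves the spread between cultures unchecked. The software was SciPy 1.17.1, pandas 2.3.3 and NumPy 2.4.6 under Python 3.11.15, with figures from Matplotlib 3.10.9.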

Additional observations from a re-analysis of the deposited data

How the results depend on the processing

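Alternatives were other added counts, filters, scalings, the highest transcript alone, protein coding transcripts alone and calls that also need an interval clear of 0. The count of members higher by size stayed at 1 except with the highest transcript alone, where it was 2 because Slc25a40 joined Slc25a46. The share of all symbols higher lay between 6.78% and 13.3%. The count lower by size was 2 with an added count of 5 and 1 with a filter of 50, and otherwise lay between 3 and 6. The median of the members was -0.0071 with the filter of 50, beside -0.04 over all symbols. With library totals made equal it was -0.28, beside -0.12, and the log2 fold of the family sum was 0.056. Over all symbols, 1826 higher and 2876 lower calls became 1023 and 1650 with an added count of 5. They were 707 and 813 of 9469 symbols with the filter of 50, and 1127 and 1479 with intervals clear of 0. With a filter of 5 the lower calls were 1894 of 13051. With the highest transcript alone Slc25a44 was at -7.34, Slc25a23 at -5.38 and Slc25a40 at 2.08. The scalings moved all log2 folds by -0.05 to 0.02 and turned the sign of Slc25a38 alone among the 39 members. No member called by size changed its sign. No paired analysis was possible because each group has 1 library. Depth limits the members with few reads: 23 of 39 had an interval narrower than 1 on the log2 scale, and 5 had under 20 reads in both libraries.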
